A study of Arabidopsis thaliana with 6 samples.

Results

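The transcripts described here are those of 6 Arabidopsis thaliana genes of flavonoid and anthocyanin metabolism: UGT78D2, DFR, AT4G14090, UF3GT, AT5MAT and AT2G22590. They were chosen by name, with earlier results of these data known. Each lies on 1 probe set annotated to that gene alone, and they are 6 of the 13356 genes that the array annotation names in this way. The study compared lcbk1-2, a mutant in the Columbia-0 ecotype described as a knock-out of the long-chain base kinase gene LCBK1, with wild-type Columbia-0. Whole seedlings aged 2 weeks, grown on half-strength MS medium with 2% sucrose and 16 h of light a day, were harvested before cold, at 22 °C (0 h), or following 3 h or 24 h of exposure to 4 °C. RNA of each genotype and time went onto 1 Affymetrix ATH1 array, 6 in all, so no condition had a replicate, and whether a sample was pooled from several plants is not given. No seedlings were kept at 22 °C alongside the cold ones, so cold, time of day and plant age cannot be told apart.

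Flavonoids are plant phenolic compounds made from phenylalanine. A shared set of core enzymes leads to dihydroflavonols, where the route divides between flavonols, which are colourless sunscreens and antioxidants, and anthocyanins, the red and purple pigments that many seedlings make in strong light or cold. Glycosyltransferases and acyltransferases then attach sugars and organic acids, which makes the products soluble and stable enough to be stored in the vacuole. UGT78D2 puts glucose on flavonols and on anthocyanidins, and so serves both branches. DFR, dihydroflavonol reductase, is the first enzyme on the anthocyanin branch; it is a core enzyme rather than a modifying one. AT4G14090 was listed as an anthocyanin glucosyltransferase gene, UF3GT (also UGT79B1) extends the sugar chain of anthocyanins, and AT5MAT adds a malonyl group to them. The annotation gave AT2G22590 only its locus name, and the grouping with glycosyltransferases comes from the gene list.

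The levels are MAS5 signals, the summary intensity of a probe set, scaled by the authors to the same 2% trimmed mean (500.1 on each array). The array medians lay between 144 and 171. A signal at or under a floor of 65.9, the 35th percentile of all signals, was treated as not distinguishable from background. No probe set was annotated to LCBK1, so the targeted transcript was not checked and each array's genotype rests on its label. On the wild-type 0 h array the spiked hybridization controls were brighter, at 2.22 times what the remaining arrays gave at their median; those ranged from 0.865 to 1.12 times. An actin control read at both ends of the transcript had its highest 3'/5' ratio on the lcbk1-2 3 h array, 19.8 against 13.0 to 16.9 elsewhere, and a second one gave 4.00 against 2.87 to 3.34. Of 10 leaf markers 3 were annotated (RCA, PORB and LHCB4.2) and of 8 root markers 3 (PYK10, EXPA7 and EXPA18). All 6 were above the floor on every array, with summed signals of 45651 to 66433 for leaf and 17267 to 22615 for root, and none of 8 seed and flower markers was annotated. In whole seedlings, fewer cells of a type and less RNA per cell cannot be told apart.

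Most of the 6 genes were near background before cold. At 0 h, 8 of the 12 signals lay under the floor, and after cold 4 of 24 did. UGT78D2 and DFR were above it on all 6 arrays, DFR only just in the wild type at 0 h. AT4G14090 and AT2G22590 were under it at 0 h in both genotypes and above it on all 4 cold arrays. UF3GT and AT5MAT were above it only on the cold lcbk1-2 arrays, 2 each. All 6 were therefore tested, since the filter asked for 2 arrays above the floor, and for UF3GT and AT5MAT both of those arrays were lcbk1-2 in the cold.

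**Figure D1:**
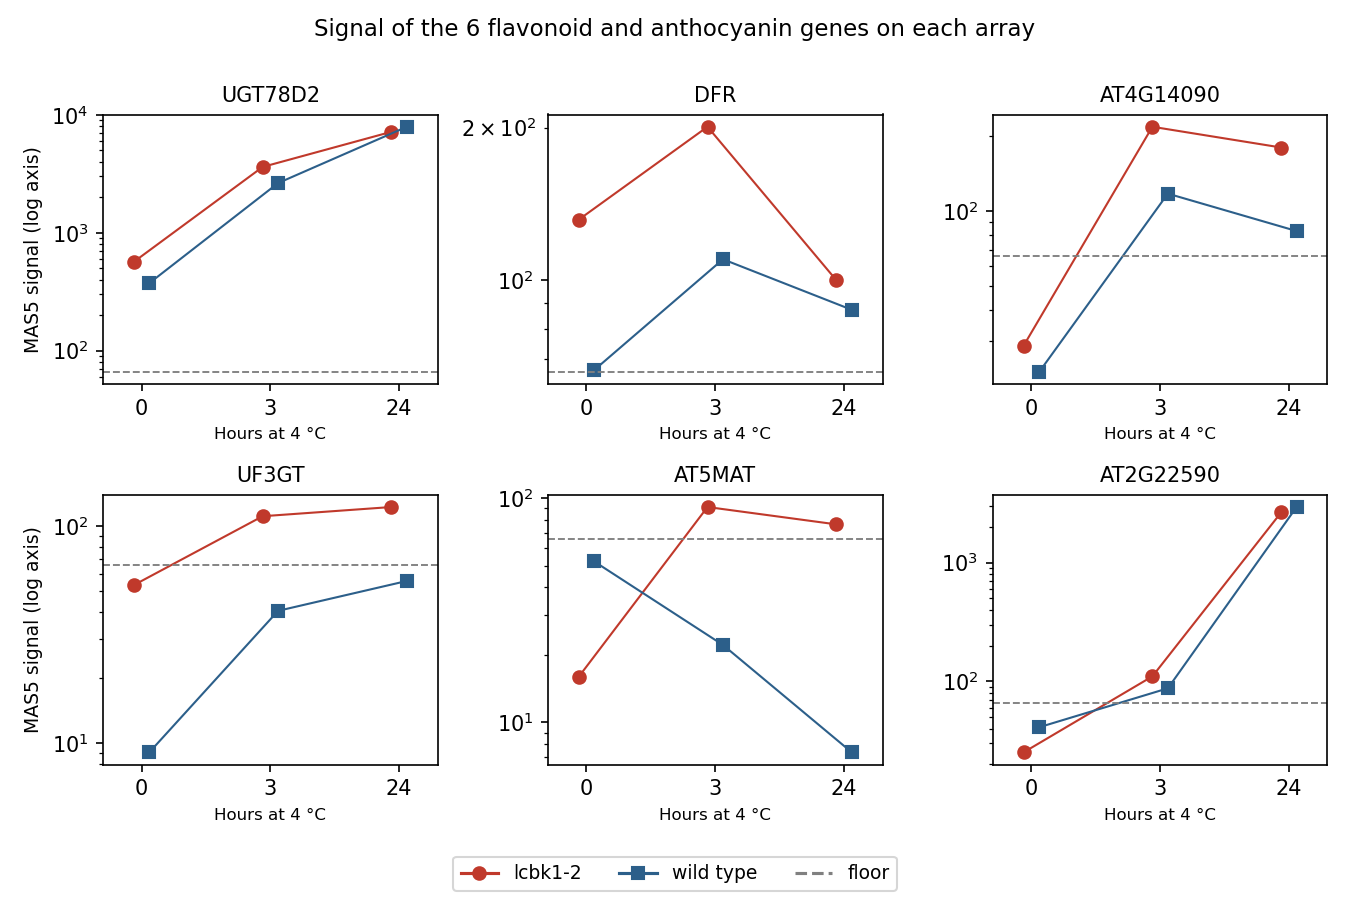
MAS5 signal (log axis, with its own range in each panel) of each of the 6 genes by hours at 4 °C, with red circles for lcbk1-2, blue squares for wild type, 1 array per point, and the floor of 65.9 as a dashed line. UGT78D2 and AT2G22590 reach 2652 or more in both genotypes by 24 h, while the other 4 genes stay at 218 or lower on every array.

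UGT78D2, the glucosyltransferase that acts on flavonols and anthocyanidins, rose at 3 h and rose again by 24 h. Its signal was 567 at 0 h, 3609 at 3 h and 7163 at 24 h in lcbk1-2, and 374, 2634 and 7904 at the same times in the wild type. The 3 times did not overlap: both 3 h arrays lay above both 0 h arrays, and both 24 h arrays above both 3 h arrays. The share of all features separated in this way was not counted, so the separation is a description only. The change shared by both genotypes was 6.70-fold at 3 h (log2 change 2.74, SE 0.20, limma adjusted p = 0.0011) and 16.4-fold at 24 h (4.03, SE 0.20, adjusted p = 6.5e-05). From 3 h to 24 h it rose a further 2.44-fold (1.29, SE 0.20, adjusted p = 0.0051). By genotype, 24 h stood 12.6-fold above 0 h in lcbk1-2 and 21.1-fold above it in the wild type, a difference of -0.74 on the log2 scale that could not be tested with 1 array each. Without the wild-type 0 h array, whose hybridization controls stood apart, the change was 2.52 at 3 h and 3.81 at 24 h, both still past the threshold. When low probe sets were not filtered out, the 3 h rise and the rise from 3 h to 24 h missed it (adjusted p = 0.097 and 0.12, the highest of 15 settings, the lowest being 1.1e-05 and 3.5e-04).

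AT2G22590, for which the annotation gives no role, rose between 3 h and 24 h in both genotypes. Its signal was 25.2, 110.1 and 2652 at 0 h, 3 h and 24 h in lcbk1-2, and 41.0, 87.3 and 2946 in the wild type. Both 24 h arrays were far above the rest, and both 3 h arrays were just above the floor. At 3 h the rise of at least 1.49-fold did not pass (log2 change 0.57, SE 0.16, adjusted p = 0.062). It passed with a floor at the 20th percentile (1.61, adjusted p = 0.049), with no floor (1.61, adjusted p = 0.036) and with a pseudocount of 32 in its place (1.01, adjusted p = 0.012), and its adjusted p ranged from 0.012 to 1 over 15 settings. By 24 h it had risen at least 42.4-fold (5.41, SE 0.16, adjusted p = 2.7e-05), and from 3 h to 24 h it rose 28.5-fold (4.83, SE 0.16, adjusted p = 1.1e-04). The 24 h signal was at least 40.2-fold above 0 h in lcbk1-2 and at least 44.7-fold in the wild type. Both 0 h arrays were set to the floor and only cold arrays exceeded it. The filter thus fixed the direction of the changes against 0 h, and their adjusted p is not evidence of direction.

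AT4G14090, listed as an anthocyanin glucosyltransferase gene, was detected only in the cold, at a low level. Its signal was 28.8, 218 and 180.0 at 0 h, 3 h and 24 h in lcbk1-2, and 22.5, 117 and 83.1 in the wild type. In each genotype the 3 h array was the highest, and the lcbk1-2 array lay above the wild-type array at both cold times. It rose at least 2.43-fold at 3 h (log2 change 1.28, SE 0.27, adjusted p = 0.027) and at least 1.85-fold at 24 h (0.89, SE 0.27, adjusted p = 0.036). Both 0 h arrays were set to the floor and only cold arrays exceeded it. The filter thus fixed the direction of these 2 changes, and their adjusted p is not evidence of direction. The change from 3 h to 24 h did not pass (-0.39, SE 0.27, adjusted p = 0.32). Neither call held when the floor was the 50th percentile (0.23 and 0.09), when low probe sets were not filtered out, or without the lcbk1-2 0 h array (0.78 and 0.39). The 3 h call was also lost without the lcbk1-2 3 h array (1.11) and the 24 h call without the lcbk1-2 24 h array (0.56).

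DFR, the reductase that opens the anthocyanin branch, was highest at 3 h in both genotypes and passed no test. In lcbk1-2 its signal was 132, 201 and 100.0 at 0 h, 3 h and 24 h, and in the wild type it was 66.5, 110.0 and 87.4. The lcbk1-2 array at 0 h lay above the wild-type array at 3 h, so the times overlapped. The shared change was 0.67 on the log2 scale at 3 h (SE 0.22, adjusted p = 0.085), 0.00 at 24 h (SE 0.22, adjusted p = 1) and -0.67 from 3 h to 24 h (SE 0.22, adjusted p = 0.057). Rescaling made the fall from 3 h to 24 h smaller, at -0.46 under median scaling and -0.51 under quantile normalization, and it passed under neither. The 3 h change passed without either of the 24 h arrays (0.67, adjusted p = 0.027 each time; range over 14 settings 0.027 to 0.40). The fall from 3 h to 24 h passed without either 0 h array (-0.67, adjusted p = 0.025 and 0.026) and without the wild-type 24 h array (-1.03, adjusted p = 0.013; range over 14 settings 0.013 to 0.33).

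UF3GT and AT5MAT, which extend and malonylate anthocyanins, stayed at or near background. UF3GT had signals of 53.4, 111 and 122 in lcbk1-2 at 0 h, 3 h and 24 h, against 9.06, 40.6 and 55.7 in the wild type. Its shared change did not pass at 3 h (log2 change 0.37, SE 0.23, adjusted p = 0.32) or at 24 h (0.44, SE 0.23, adjusted p = 0.16). Since all 3 wild-type values were set to the floor, these figures come from the lcbk1-2 arrays and are not bounds, and without the lcbk1-2 0 h array they were -0.04 and 0.04. With a lower floor, no floor, a pseudocount, or without the wild-type 0 h array, the 24 h change passed at 0.85 to 1.91, with adjusted p between 0.0016 and 0.92 over 12 settings. The 3 h change passed with the pseudocount (0.78, adjusted p = 0.013) and without that array (0.78, adjusted p = 0.049), in a range of 0.013 to 0.95. AT5MAT had signals of 16.0, 91.2 and 76.3 in lcbk1-2, against 52.1, 22.1 and 7.35 in the wild type. Its changes were 0.23 at 3 h, 0.11 at 24 h and -0.13 from 3 h to 24 h (SE 0.16 each, adjusted p = 0.37, 0.62 and 0.58). Values under the floor have no order here, so the decline seen in the wild-type signals of AT5MAT was given no direction.

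Counted together, 2 of the 6 genes rose at 3 h, UGT78D2 and AT4G14090, and none fell. Across all 15658 features tested, 17.2% passed at 3 h, 9.28% higher and 7.88% lower. At 24 h 3 of 6 rose, with AT2G22590 as the third, against 47.8% of all features in either direction, 19.3% higher and 28.6% lower; scaling the arrays to a common median turned this split to 4020 higher and 3267 lower, against 3015 and 4473, and moved the median of all features from -0.11 to 0.06. Between 3 h and 24 h 2 of 6 rose, UGT78D2 and AT2G22590, against 34.0% of all features, 12.9% higher and 21.2% lower. That split was 2016 higher against 3313 lower, which quantile normalization turned to 2510 higher and 2645 lower, and median scaling to 3115 and 2215. The counts of the 6 genes were the same under both scalings. The median log2 change of the 6 was 0.62 at 3 h, 0.67 at 24 h and -0.03 from 3 h to 24 h, beside -0.03, -0.11 and -0.08 over all features. Since 4 of the 6 passed the filter only through their cold arrays, they could not come out lower in the cold than at 0 h, and nothing is read from these counts and medians against 0 h. The 6 genes were also chosen with earlier results of these data known, so nothing is read from the count and median between 3 h and 24 h either.

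**Figure D2:**
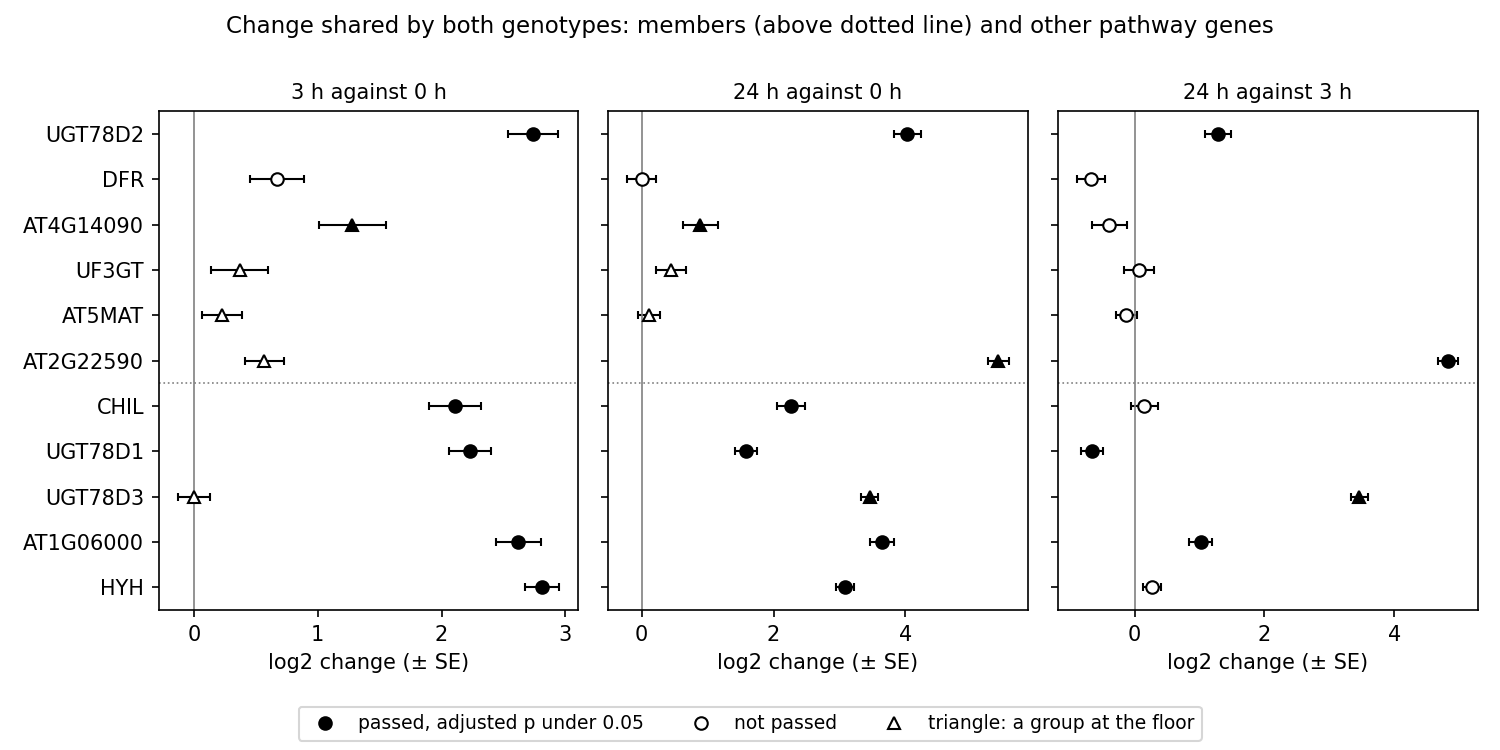
log2 change (horizontal axis, bars ± SE from limma, 6 arrays) of the 6 genes, above the dotted line, and of 5 other flavonoid pathway genes for 3 h against 0 h, 24 h against 0 h and 24 h against 3 h. Filled symbols passed an adjusted p of 0.05, and triangles mark comparisons where no array of 1 time exceeded the floor; UGT78D2 is at 2.74 at 3 h, while AT2G22590 is at 0.57 at 3 h and 5.41 at 24 h.

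Other genes of the pathway were then read from lists of 62 loci, covering phenylpropanoid and core flavonoid enzymes, modification, transport and regulators. Of these, 50 were not on a probe set of 1 gene and are not analysed here, among them the enzymes just before and after DFR. Beside the 6 genes above, 6 were measured: CHIL, UGT78D1, UGT78D3, AT1G06000, HYH and BAN. BAN, the anthocyanidin reductase of seed-coat tannins, lay under the floor on all 6 arrays and was not tested. Of the other 5, 4 rose at 3 h and 5 at 24 h, where 9.28% and 19.3% of all features rose, with median log2 changes of 2.23 and 3.08. UGT78D3 passed the filter only through its 24 h arrays, so its direction at 24 h was fixed. The lists were also chosen with earlier results of these data known, so nothing is read from these counts and medians. When low probe sets were not filtered out, none of the 5 passed at 3 h and 4 passed at 24 h.

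UGT78D1, which puts rhamnose on flavonols and belongs to the same subfamily as UGT78D2, rose at 3 h and then fell. Its signal was 368, 1810.3 and 959.9 at 0 h, 3 h and 24 h in lcbk1-2, and 266, 1189 and 916 in the wild type. The shared change was 2.23 on the log2 scale at 3 h (SE 0.17, adjusted p = 0.0012), 1.58 at 24 h (SE 0.17, adjusted p = 7.6e-04) and -0.65 from 3 h to 24 h (SE 0.17, adjusted p = 0.031). The late fall was lost in 6 of 15 settings, among them median scaling (-0.44) and leaving out the lcbk1-2 3 h array (-0.48) or the lcbk1-2 24 h array (-0.41). AT1G06000, listed as a modification gene, took the course of UGT78D2 instead, at 385, 2809 and 4613 in lcbk1-2 and 435, 2255 and 5654 in the wild type. It rose by 2.62 on the log2 scale at 3 h, 3.64 at 24 h and 1.02 between them (SE 0.18 each, adjusted p = 9.7e-04, 6.5e-05 and 0.0081). UGT78D3, a flavonol arabinosyltransferase of the same subfamily, was under the floor at 0 h and 3 h in both genotypes and reached 713 in lcbk1-2 and 740.3 in the wild type at 24 h, a rise of at least 11-fold (log2 change 3.46, SE 0.13, adjusted p = 3.3e-05). Only the 24 h arrays of UGT78D3 exceeded the floor, so the filter fixed the direction of that rise and its SE can be too small. Whether the probe sets of these related glycosyltransferases share targets was not tested.

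CHIL, a chalcone isomerase-like protein that helps the first flavonoid enzyme, rose by 2.11 on the log2 scale at 3 h (SE 0.21, adjusted p = 0.0026) and 2.26 at 24 h (SE 0.21, adjusted p = 4.4e-04). Its signals were 339, 1455 and 1260.2 at 0 h, 3 h and 24 h in lcbk1-2, and 239, 1039 and 1469 in the wild type. HYH, a bZIP transcription factor of light responses related to HY5, rose by 2.81 at 3 h and 3.08 at 24 h (SE 0.14 each, adjusted p = 3.4e-04 and 5.3e-05), with signals of 104, 777 and 842 in lcbk1-2 and 107, 702 and 942 in the wild type. Neither passed between 3 h and 24 h (0.15 and 0.27), though HYH did under median scaling (0.48, adjusted p = 0.042, within a range of 0.042 to 0.69 over 15 settings).

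**Figure D3:**
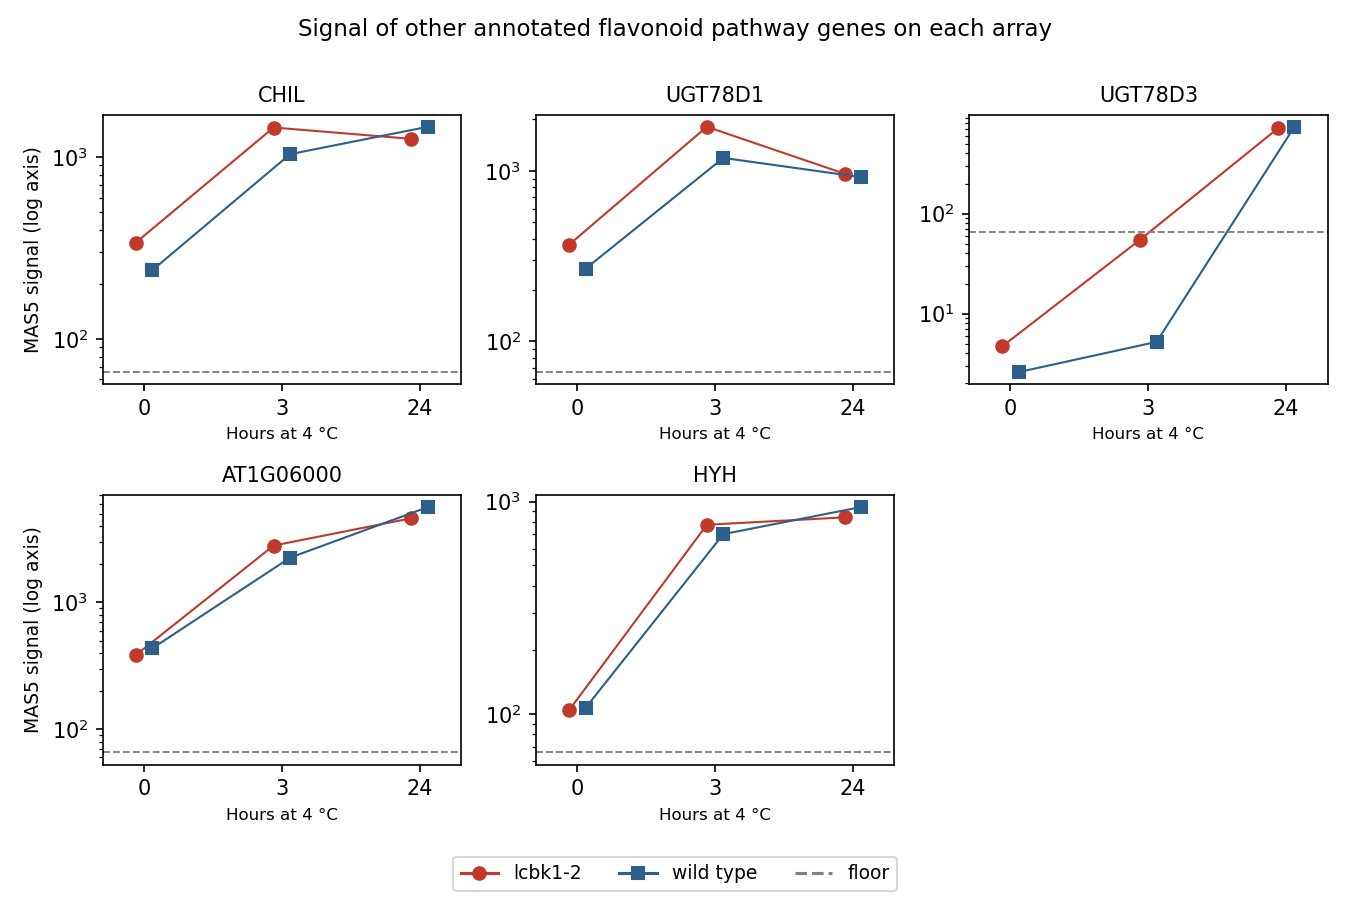
MAS5 signal (log axis, with its own range in each panel) of CHIL, UGT78D1, UGT78D3, AT1G06000 and HYH by hours at 4 °C, with red circles for lcbk1-2, blue squares for wild type, 1 array per point, and the floor of 65.9 as a dashed line. CHIL, UGT78D1, AT1G06000 and HYH are up by 3 h, UGT78D3 is above the floor only at 24 h, and UGT78D1 is lower at 24 h than at 3 h in both genotypes.

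Likeness of pattern was measured as the root mean square difference of log2 signals over the 6 arrays. The floor was applied, and each gene was centred on its own mean. AT4G14090 and AT2G22590 were set to the floor on both 0 h arrays, so their closest genes can depend on the floor. The closest annotated genes to UGT78D2 were AT4G18280 (0.26), AT1G06000 (0.28) and AT1G60590 (0.35), so 1 of the 3 came from the pathway lists. For AT2G22590 they were AT3G17130 (0.20), the cold-regulated gene COR27 (0.31) and AT2G21130 (0.40). AT4G14090 was closest to AT3G05340 (0.09), AT5G15190 (0.14) and AT3G05270 (0.16), and DFR to AT4G34500 (0.13), the sugar transporter gene SAG29 (0.18) and the F-box protein gene SKP2A (0.18). UF3GT and AT5MAT varied too little above the floor for this measure. Among the 6 genes themselves UGT78D2 and AT2G22590 were 1.47 apart, and the 4 low genes were 0.25 to 0.54 from each other, with UF3GT and AT5MAT set to the floor on 4 arrays each and AT4G14090 on 2.

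The comparison of lcbk1-2 with the wild type asks whether these transcripts depend on the kinase. None of the 6 genes passed in the additive fit across the 3 times (limma, adjusted p between 0.44 and 0.92), where 0.0128% of all features passed, 0.00639% in each direction. At an unadjusted p under 0.05 there were 3 of 6, DFR, AT4G14090 and UF3GT, each higher in lcbk1-2, where 8.25% of all features were, 5.23% higher. UF3GT and AT5MAT entered the fit only through their cold lcbk1-2 arrays, with the wild type at the floor, so their direction was fixed by the filter and nothing is read from the count. DFR differed by 0.68 on the log2 scale (SE 0.18, unadjusted p = 0.0077, adjusted p = 0.44), AT4G14090 by 0.67 (SE 0.22, unadjusted p = 0.022, adjusted p = 0.54) and UF3GT by 0.55 (SE 0.19, unadjusted p = 0.027, adjusted p = 0.56). UGT78D2 differed by 0.30 (SE 0.17), AT5MAT by 0.23 (SE 0.13) and AT2G22590 by 0.06 (SE 0.13). The values of UF3GT and AT5MAT depend on the floor and are not bounds, since lcbk1-2 at 0 h was set to it too. Those of AT4G14090 and AT2G22590 also depend on it, since both genotypes were set to it at 0 h. With a floor at the 50th percentile they were 0.22 and -0.05, and with no floor 0.79 and -0.17. Of the 5 other pathway genes none passed, with differences from -0.05 to 0.38. Over the alternative settings the adjusted p of the 6 genes stayed between 0.12 and 1.

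By time, with 1 array against 1 and no test, UGT78D2, DFR, AT4G14090 and AT2G22590 were all higher on the lcbk1-2 array at 3 h, where 51.7% of all features were. UF3GT and AT5MAT were higher there too, but with the wild type at the floor they could take no other direction. That array also had the highest actin 3' to 5' ratio, and the part of this in the difference was not tested. At 24 h DFR and AT4G14090 were higher in lcbk1-2, where 47.1% of all features were, and UGT78D2 and AT2G22590 were 1.1-fold and 1.11-fold lower. At 0 h UGT78D2 and DFR were higher, by 1.52-fold and 1.98-fold, where 48.3% of features were higher, and the other 4 were at the floor in both genotypes. The wild-type 0 h array had the brighter hybridization controls, and the part of this in the 0 h differences was not tested. DFR was at 66.5 on it, just above the floor. Of the genes above the floor at 0 h, only DFR was higher in lcbk1-2 at all 3 times, where 15.1% of features were. Its differences were 1.98-fold, 1.82-fold and 1.14-fold at 0 h, 3 h and 24 h. AT4G14090 was 1.86-fold higher in lcbk1-2 at 3 h and 2.17-fold at 24 h, where 0.473% of features were at least 2-fold higher at 24 h and 0.345% lower. At 0 h and 3 h no difference measured above the floor in both genotypes reached 2-fold, beside 0.319% and 0.434% of features higher by that much and 0.364% and 0.287% lower. UF3GT was at least 1.68-fold and 1.85-fold higher at 3 h and 24 h, and AT5MAT at least 1.38-fold and 1.16-fold. These are lower bounds, so the gaps of the 6 genes were not ranked.

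**Figure D4:**
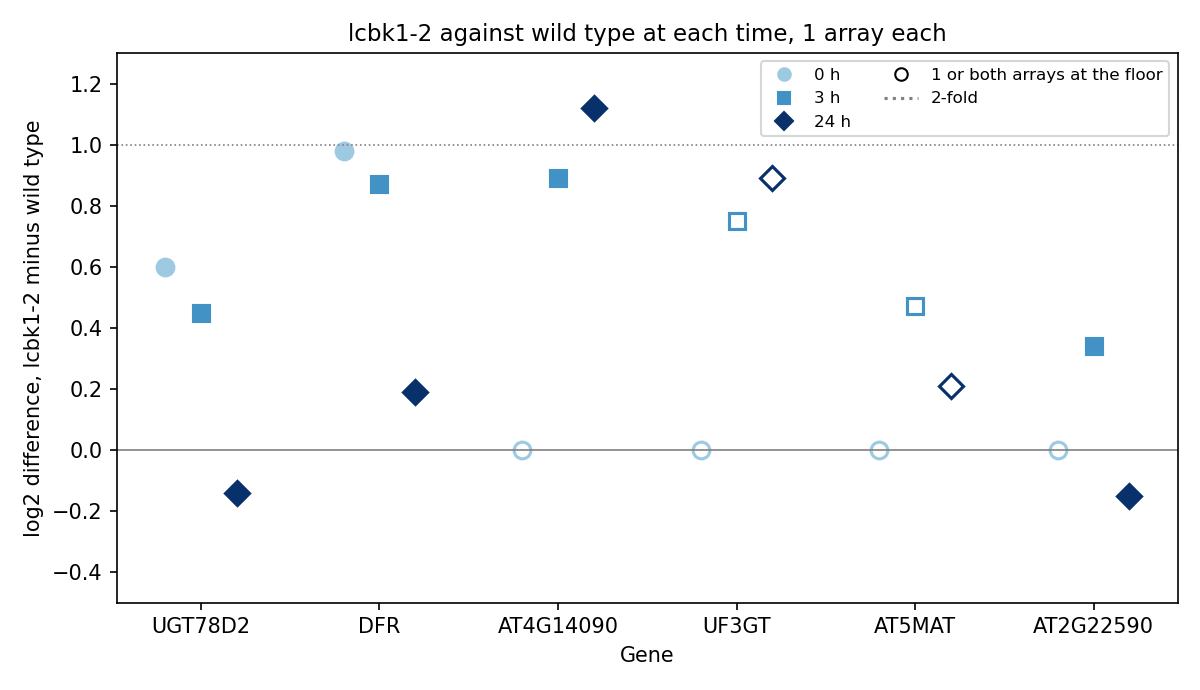
log2 difference of lcbk1-2 minus wild type (vertical axis) at 0 h, 3 h and 24 h for each of the 6 genes, 1 array against 1, with open symbols where 1 or both arrays lay at the floor and the dotted line at 2-fold. At 3 h every symbol lies above 0, which for UF3GT and AT5MAT follows from a wild type at the floor, and UGT78D2 and AT2G22590 lie just below 0 at 24 h, at -0.14 and -0.15.

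Read within each genotype, at 3 h 2 of the 6 genes were at least 2-fold above 0 h in lcbk1-2 (UGT78D2 and AT4G14090), where 5.19% of features were, and 1 in the wild type (UGT78D2), where 4.41% were. None was 2-fold lower, beside 3.19% of features in lcbk1-2 and 2.89% in the wild type. At 24 h 3 of 6 were at least 2-fold above 0 h in lcbk1-2, against 9.80% of features. In the wild type 2 were, against 9.73%, the third in lcbk1-2 being AT4G14090. None was 2-fold lower, beside 13.0% and 12.9%. Only UGT78D2 lay far enough above the floor at 0 h to fall 2-fold in either genotype. AT4G14090, UF3GT, AT5MAT and AT2G22590 passed the filter only through their cold arrays. Nothing is therefore read from these counts against 0 h. Between 3 h and 24 h, 1 of 6 was at least 2-fold higher in lcbk1-2 (AT2G22590, 24.1-fold) and DFR was 2.01-fold lower, beside 5.70% and 9.39% of features. That fall of DFR was barely past 2-fold and was not recomputed under other scalings. In the wild type AT2G22590 and UGT78D2 were at least 2-fold higher, at 33.7-fold and 3.00-fold, and none was 2-fold lower, beside 6.00% and 9.27%. Only UGT78D2 lay far enough above the floor in the wild type at 3 h to fall 2-fold, so nothing is read from the lack of falls. Nor is anything read from the number of rises, since the genes were chosen with earlier results of these data known. UGT78D2 was 1.98-fold higher over that interval in lcbk1-2.

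For the low genes the change within a genotype is a lower bound, because the 0 h values were at the floor, and the bounds of the genotypes were not compared. AT4G14090 was higher by at least 1.73 on the log2 scale at 3 h and 1.45 at 24 h in lcbk1-2, against at least 0.83 and 0.33 in the wild type. UF3GT was higher by at least 0.75 and 0.89 in lcbk1-2 and remained at the floor in the wild type. AT2G22590 was higher at 24 h by at least 5.33 in lcbk1-2 and at least 5.48 in the wild type. No difference between genotypes could be tested here, because each change within a genotype rests on 1 array at each time.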

How the data were processed

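The deposited values are intensities, 1 for every probe set on an array, computed by the authors with MAS5 according to the submitters' processing notes, which give no version. Per the labels' protocols, 6 µg of total RNA was labelled for each array. Of 22810 features, 64 controls were set aside; of the rest, 13513 carried 1 gene, 503 several and 8730 no gene (platform annotation, loci from RefSeq TAIR10.1). The brightest probe set per gene was kept (22589 features), signals under the floor of 65.9 were set to it, and log2 was taken. The 15658 features that exceeded the floor on 2 or more arrays entered an additive limma model (3.58.1; R 4.3.3) of genotype plus time, two-sided, Benjamini-Hochberg adjusted, threshold 0.05. With 2 residual degrees of freedom (prior 4.16), SE and p hold array error and any genotype difference in the cold response, not replicate spread. Values at the floor do not vary, so their SE can be too small; a fold against a group at the floor is "at least". Other floors, a pseudocount, quantile and median scaling, probe set means and leaving out each array were tried, and, added after the data were seen, a prior trend. The script was tested on simulated data. The genes and lists were chosen with earlier results of these data known. Named were the 6 genes, the annotated members of the pathway lists and the 3 nearest patterns of each gene spanning at least 1 log2 unit. Sequences are not printed.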

Additional observations from a re-analysis of the deposited data

Results flagged for a closer look

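DFR went opposite ways in the genotypes between 0 h and 24 h, changing by -0.40 on the log2 scale in lcbk1-2 and by 0.39 in the wild type, a difference of -0.79. CHIL did so between 3 h and 24 h, at -0.21 in lcbk1-2 and 0.50 in the wild type, a difference of -0.71. Each rests on 1 array per genotype and time, and neither difference was tested. Single-array changes were not recomputed under other scalings, so these directions can depend on the scaling. From 3 h to 24 h the array median went from 170.8 to 143.7 in lcbk1-2 and from 162.0 to 144.4 in the wild type. Under median scaling the shared change of CHIL over that interval was 0.35, in place of 0.15. DFR in the wild type at 0 h was at 66.5, just above the floor of 65.9, on the array whose hybridization controls stood apart.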

How the results depend on the processing

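The number of the 6 genes past the threshold at 3 h was 2, and became 1 with a floor at the 50th percentile, 0 with no filter on low probe sets (UGT78D2 at 2.74, adjusted p = 0.097, in a range of 1.1e-05 to 0.097 over 15 settings) and 4 with a pseudocount of 32. From 3 h to 24 h it was 2, and 1 with no filter. That setting also ended the 3 h calls of CHIL, UGT78D1, AT1G06000 and HYH, the 24 h call of CHIL and the calls of AT1G06000 and UGT78D1 from 3 h to 24 h, with the same log2 changes and 22589 features in the fit in place of 15658. The prior SD that limma shares across features was 0.00476 there, against 0.158 in the main fit. The SE of UGT78D2 at 3 h was 0.25, against 0.20. The part of each in the lost calls was not tested. Leaving out 1 array gave 1 to 3 genes at 3 h, 2 to 4 at 24 h, 2 to 3 from 3 h to 24 h and 0 for lcbk1-2 against wild type; with 1 residual degree of freedom the lone array of a time was assumed to vary like the others. The 24 h calls of UGT78D2 and AT2G22590 held in all 15 settings. Directions turned only where no call stood. For DFR at 24 h the value was 0.13 under quantile normalization, 0.17 under median scaling and -0.37 to 0.37 with 1 array left out (0.23 and 0.37 without the lcbk1-2 0 h and 24 h arrays). AT2G22590 in lcbk1-2 against wild type was -0.17 when the floor was the 20th percentile or absent, -0.05 when it was the 50th, -0.08 with a pseudocount and -0.08 without either 3 h array. AT5MAT at 24 h was -0.28 with no floor. With 1 array left out, AT5MAT at 24 h lay between -0.06 (no lcbk1-2 0 h) and 0.27, UF3GT at 3 h between -0.04 (no lcbk1-2 0 h) and 0.78, UF3GT from 3 h to 24 h between -0.08 (no wild-type 3 h) and 0.33, and CHIL from 3 h to 24 h between -0.21 (no wild-type 24 h; -0.03 with no wild-type 3 h) and 0.50. The cause was not tested. DFR under the highest floor, and UF3GT and AT5MAT under 3 settings each, were filtered out and gave no value.

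Over all features, 2687 passed at 3 h, against 1018 with a floor at the 20th percentile, 1549 with none, 124 with no filter and 1103 to 2990 with 1 array left out. At 24 h 7488 passed, against 3585 with no filter, and from 3 h to 24 h 5329, against 1584 with no filter and 3370 without the wild-type 3 h array. For lcbk1-2 against wild type 2 passed, against 0 to 24. No paired analysis was possible because the labels number no replicates and each condition has 1 array; genotype is already a term of the fit. With 1 array per condition, signals near the floor are the least certain values here.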

Other observations

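The other genes of the pathway differed between the genotypes by the following amounts at single times, with 1 array each and no test. UGT78D1 was 1.38-fold higher in lcbk1-2 at 0 h, 1.52-fold at 3 h and 1.05-fold at 24 h. CHIL was 1.42-fold and 1.40-fold higher in lcbk1-2 at 0 h and 3 h, and 1.17-fold lower at 24 h. AT1G06000 was 1.13-fold lower in lcbk1-2 at 0 h, 1.25-fold higher at 3 h and 1.23-fold lower at 24 h. HYH stayed within 1.12-fold at all 3 times, and UGT78D3 was 1.04-fold lower in lcbk1-2 at 24 h. BAN had signals of 2.72, 7.70 and 6.42 in lcbk1-2 and 32.1, 29.1 and 38.5 in the wild type at 0 h, 3 h and 24 h, all under the floor.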
